A study of Homo sapiens with 8 samples.

Results

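The genes described here sense double-stranded RNA in human cells or pass that signal on. There are 10 of them among the 18850 genes named on the array, chosen by name, with earlier results of these data known. They are the sensors RIGI, IFIH1, DHX58 and TLR3, the adaptors MAVS and TICAM1, the kinases TBK1, IKBKE and EIF2AK2 and the RNA editor ADAR. All 10 were matched, through 15 probes. They were followed in PC3, an established line from a human prostate carcinoma, in which the study asked what depletion of TRPM2-AS, a transcript antisense to the ion channel gene TRPM2, does to gene expression. Cells in DMEM with 2 mM glutamine and 10% serum received a control siRNA of no specific target (4 samples) or an siRNA against TRPM2-AS (4 samples), and total RNA was taken after 48 hours. Both groups therefore received an siRNA, which is itself a short RNA duplex, and no untransfected cells were analysed here. With 1 siRNA against the transcript, whose sequence is not given in the sources used here, effects of TRPM2-AS depletion and of that duplex itself cannot be told apart. No probe was named for TRPM2-AS in the annotation used, so its own depletion was not analysed here.

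Long or unusual RNA duplexes in the cytosol are bound by the helicases RIG-I and MDA5, encoded by RIGI and IFIH1, which then join the mitochondrial adaptor MAVS. In endosomes, TLR3 binds such duplexes and signals through TICAM1, also called TRIF. Both routes reach the kinases TBK1 and IKKε, the product of IKBKE, which phosphorylate IRF3 and IRF7 and so lead to interferon genes. EIF2AK2 encodes PKR, which halts translation when it binds duplexes, and ADAR edits adenosines within them and limits their recognition. Many of these genes are themselves known to be induced by interferon.

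Promoter stretches are shown for the members that hold letters known from interferon and NF-kB control. RefSeq windows of 300 bases (GRCh38.p14, 250 before to 50 after the start of transcription) were found for 9 members; DHX58 was not matched. They were searched on both strands for GAAANNGAA, from the core of the interferon-stimulated response element, and for GGANTTTCC, from an NF-kB site. The first was present in IFIH1, EIF2AK2 and TLR3, and in 8.11% of all 35116 windows. The second was present in RIGI, IFIH1 and TICAM1, and in 1.64% of all windows. RIGI also holds GAAANGAAA, a closer spacing of the same repeat that 3.12% of windows hold. The letters of all these motifs were settled after the windows had been read. In the stretches below the matches are in capitals, each strand read 5′ to 3′ along its gene; in IFIH1 overlapping matches form the first capital run.
IFIH1, chr2:162318685-162318860, minus strand: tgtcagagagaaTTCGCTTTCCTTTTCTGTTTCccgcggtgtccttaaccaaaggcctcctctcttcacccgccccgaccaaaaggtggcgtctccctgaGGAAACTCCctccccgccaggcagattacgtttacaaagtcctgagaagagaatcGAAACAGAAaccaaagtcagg
RIGI, chr9:32526252-32526411, minus strand: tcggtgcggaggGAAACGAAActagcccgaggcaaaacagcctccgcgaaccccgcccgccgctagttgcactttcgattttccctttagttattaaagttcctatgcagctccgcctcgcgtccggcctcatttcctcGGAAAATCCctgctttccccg
EIF2AK2, chr2:37156971-37156998, minus strand: ggagtccaagggGAAAACGAAactgaga
TICAM1, chr19:4831811-4831843, minus strand: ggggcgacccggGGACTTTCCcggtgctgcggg
TLR3, chr4:186069141-186069165, plus strand: tcaagctttactTTCACTTTCgaga
These are matches of letters only. No match to the motifs searched was found in the windows of MAVS, TBK1, IKBKE or ADAR, the last with 3 windows.

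Of the 8 raw array columns, 7 ranked the probes exactly as 1 labelled sample did, and the comparison rests on these 4 control and 3 TRPM2-AS siRNA arrays (replicates 1, 2 and 4). The remaining column carries the name of the TRPM2-AS siRNA group but matched no sample and was left out; its Spearman rho was 0.820 to 0.832 with the control samples and 0.809 to 0.817 with the TRPM2-AS siRNA samples. TRPM2-AS siRNA replicate 3 is present in the authors' processed values, in which all 8 samples were compared. The arrays detected 13163 to 14318 probes each at a detection p under 0.01. The epithelial keratin genes KRT8, KRT18 and KRT19 and EPCAM were detected in both groups, CDH1 on the 3 TRPM2-AS siRNA arrays only, and the prostate markers KLK2, KLK3, KLK4 and FOLH1 on 0 arrays. Of these 5 epithelial markers EPCAM fell by 1.14 on the log2 scale (limma adjusted p = 7.24e-06), KRT19 by 0.44 (limma adjusted p = 0.00874) and KRT18 by 0.51 (limma adjusted p = 0.0266). The other KRT18 probe went the opposite way, with a log2 difference of 0.11, and did not pass (limma adjusted p = 0.667 over probes). CDH1, not above background in controls, was at least 1.03-fold higher on the background-corrected scale. It entered the test through the TRPM2-AS siRNA arrays alone. KRT8 had a log2 fold change of 0.00 and did not pass, and the part of these markers in the results was not tested. Of 9 fibroblast, endothelial and blood markers with a probe, COL1A1 and CD14 were detected; the summed normalized intensity of the 9 was 373 to 427 on control and 463 to 494 on TRPM2-AS siRNA arrays, COL1A1 rose 1.68-fold (limma adjusted p = 0.000436), and the part of this in the results was not tested. PTPRC, CD3E, PECAM1 and DCN were not above background on any array. Nothing in the labels ties a replicate to its own culture. The p-values below therefore set the difference between groups against the spread within groups, and that spread may be technical only.

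Expression of the cytosolic sensors RIGI and IFIH1, the TICAM1 adaptor and the signalling kinases was higher with TRPM2-AS siRNA, and that of ADAR was lower. Of the 10 members 8 were detected on at least 3 arrays and tested. IFIH1, RIGI, TICAM1, IKBKE, TBK1 and EIF2AK2 rose, ADAR fell and MAVS did not pass on its brightest probe (limma, Benjamini-Hochberg adjusted p under 0.05 over 9629 genes). In the same fit 57.3% of all tested genes passed, 28.5% higher and 28.8% lower, and the members' counts are to be read against these shares. DHX58 and TLR3 were not above background on any array. The median log2 fold change was 0.67 over the 8 tested members and 0.00 over all tested genes.

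**Figure D1:**
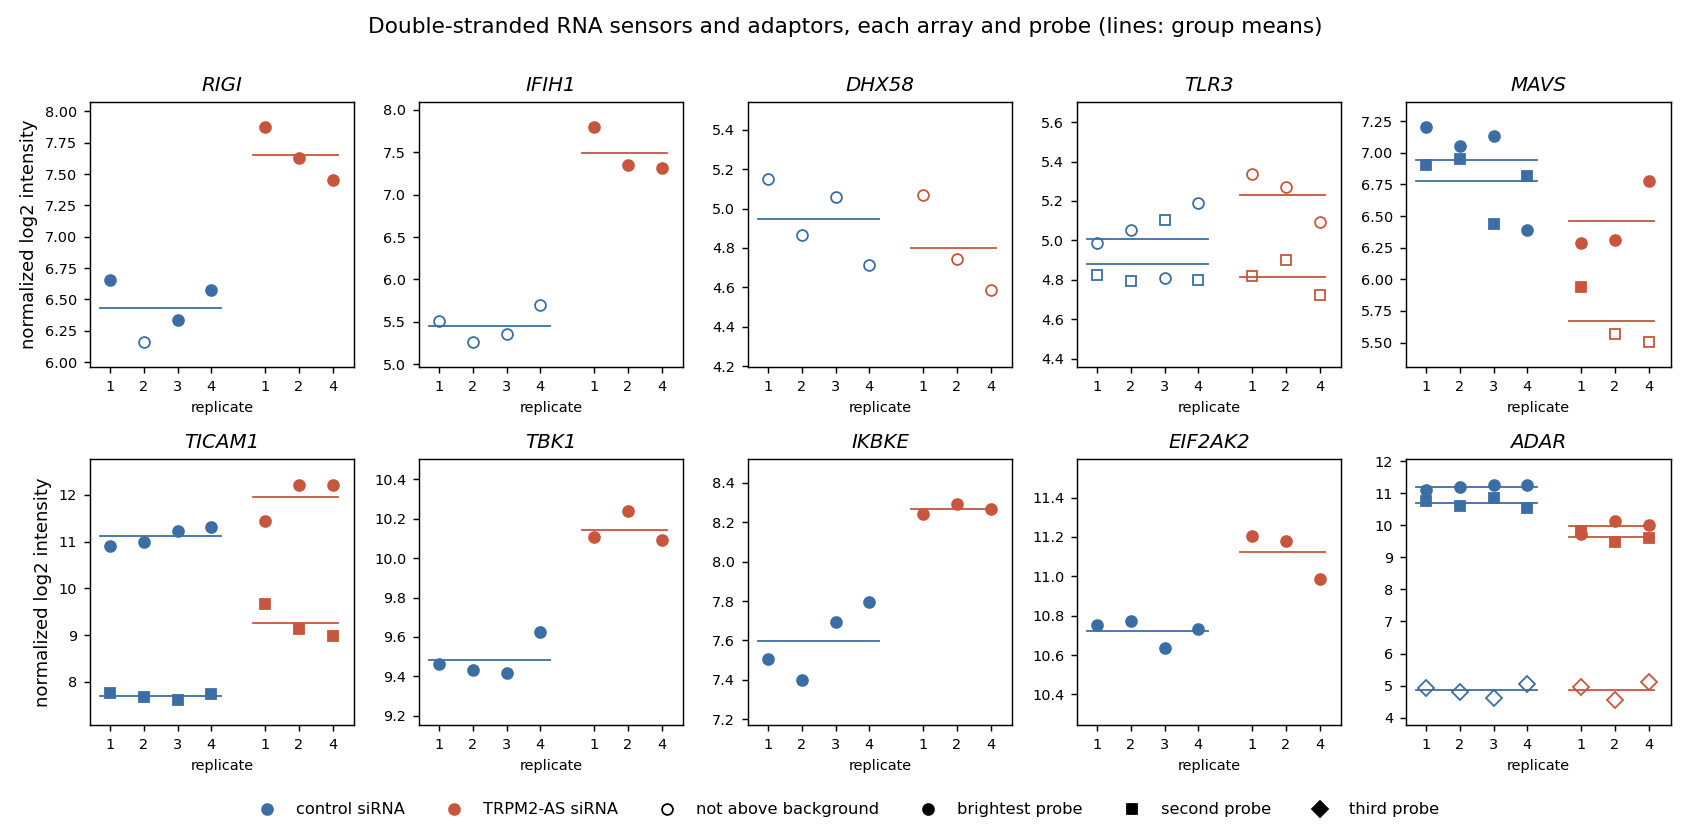
Normalized log2 intensity of every member probe (vertical axes, 1 panel per gene) on each of the 4 control siRNA arrays (blue) and 3 TRPM2-AS siRNA arrays (red), labelled by replicate; open symbols were not above background and lines are group means. The groups are apart for RIGI, IFIH1, TICAM1, TBK1, IKBKE, EIF2AK2 and the detected ADAR probes, and the brightest MAVS probe overlaps.

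Among the sensors, IFIH1 (chr2:162267074-162318684 on GRCh38.p14, as for the positions that follow) encodes MDA5, which binds long duplexes. Its normalized log2 intensity was 5.51, 5.26, 5.36 and 5.69 on control arrays 1 to 4 and 7.80, 7.36 and 7.31 on TRPM2-AS siRNA arrays 1, 2 and 4. It was not above background on any control array and was detected on all 3 TRPM2-AS siRNA arrays, so only a lower bound of the change can be given. On the background-corrected scale IFIH1 was at least 2.69-fold higher with TRPM2-AS siRNA (group means 5.46 ± 0.19, SD, n = 4, and 7.49 ± 0.27, SD, n = 3; limma adjusted p = 1.13e-06). This bound holds for that scale only: the log2 fold change of IFIH1 was 0.97 without background correction and 0.96 in the authors' processed values, both smaller than the bound. Its place in the test came through the TRPM2-AS siRNA arrays alone.

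RIGI (chr9:32455302-32526196) encodes RIG-I, which binds short duplexes with a 5′ triphosphate. Its log2 intensity was 6.65, 6.16, 6.34 and 6.57 on control arrays 1 to 4, the second of these not above background, and 7.88, 7.63 and 7.45 on TRPM2-AS siRNA arrays 1, 2 and 4. The groups did not overlap. RIGI rose 2.33-fold (log2 fold change 1.22 ± 0.15 SE, limma adjusted p = 4.45e-05). The size depends on the background step: the log2 fold change was 0.69 without background correction and 0.67 in the authors' processed values. For RIGI and IFIH1 the TRPM2-AS siRNA array of replicate 1 was the highest.

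The other sensors gave no measurable level. DHX58 (chr17:42101411-42112714) encodes LGP2, a helicase of the same family that lacks the signalling domains, and its single probe lay between 4.71 and 5.15 on control and 4.58 and 5.07 on TRPM2-AS siRNA arrays. TLR3 (chr4:186069156-186088073) had a pair of probes. The brighter one ranged from 4.81 to 5.19 on control and from 5.09 to 5.33 on TRPM2-AS siRNA arrays, and the dimmer one from 4.79 to 5.11 and from 4.72 to 4.90. The dimmest probe that counted as detected stood at 5.88 to 6.22, depending on the array, above all of these values. A change in either gene was not detectable on these arrays.

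The adaptors went different ways. TICAM1 (chr19:4815932-4831712), the adaptor of TLR3, was read by 2 probes that were detected on all 7 arrays. Its brightest probe stood at 10.91, 10.99, 11.24 and 11.31 on control arrays 1 to 4 and at 11.43, 12.22 and 12.20 on TRPM2-AS siRNA arrays 1, 2 and 4. This probe rose 1.79-fold (log2 fold change 0.84 ± 0.19 SE, limma adjusted p = 0.00336), with replicate 1 just above the controls.

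The second TICAM1 probe stood at 7.75, 7.67, 7.62 and 7.73 on control arrays and at 9.67, 9.12 and 8.98 on TRPM2-AS siRNA arrays. It rose 2.96-fold (log2 difference 1.57 ± 0.16 SE, limma adjusted p = 1.43e-05 in a fit over 14400 probes, of which 55.6% passed). Both probes placed the groups apart, but replicate 1 was the lowest TRPM2-AS siRNA array on one and the highest on the other. The authors' processed values, with replicate 3 added, had the same order: replicate 1 was at 11.51 against 12.22 to 12.28 in the other replicates on the brightest probe and at 9.88 against 9.28 to 9.40 on the second.

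MAVS (chr20:3846834-3876118), the mitochondrial adaptor of RIG-I and MDA5, was also read by 2 probes. The brighter one was at 7.20, 7.05, 7.13 and 6.39 on control arrays 1 to 4 and at 6.29, 6.31 and 6.78 on TRPM2-AS siRNA arrays 1, 2 and 4. Control replicate 4 lay among the TRPM2-AS siRNA arrays. The probe had a log2 fold change of -0.49 ± 0.20 SE (95% interval without adjustment -0.93 to -0.04, limma adjusted p = 0.0601). It passed without control replicate 4 (log2 fold change -0.67, adjusted p = 0.00445, limma) or without TRPM2-AS siRNA replicate 4 (-0.65, adjusted p = 0.0276, limma).

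The second MAVS probe was at 6.90, 6.95, 6.43 and 6.82 on control arrays and at 5.94, 5.57 and 5.51 on TRPM2-AS siRNA arrays, where it was detected on 1 of 3. The groups did not overlap on it. As fitted it fell by 1.10 on the log2 scale (± 0.16 SE, limma adjusted p = 0.000167 over probes), and by 0.55 in the authors' processed values. This probe met the detection filter through the control arrays, and its TRPM2-AS siRNA level was mostly below background. MAVS thus passed on its second probe and with the mean of both probes (log2 fold change -0.80, limma adjusted p = 0.000415), and the size depends on the probe. Over the alternatives its log2 fold change ranged from -0.80 to -0.25 and its limma adjusted p from 0.000415 to 0.288.

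**Figure D2:**
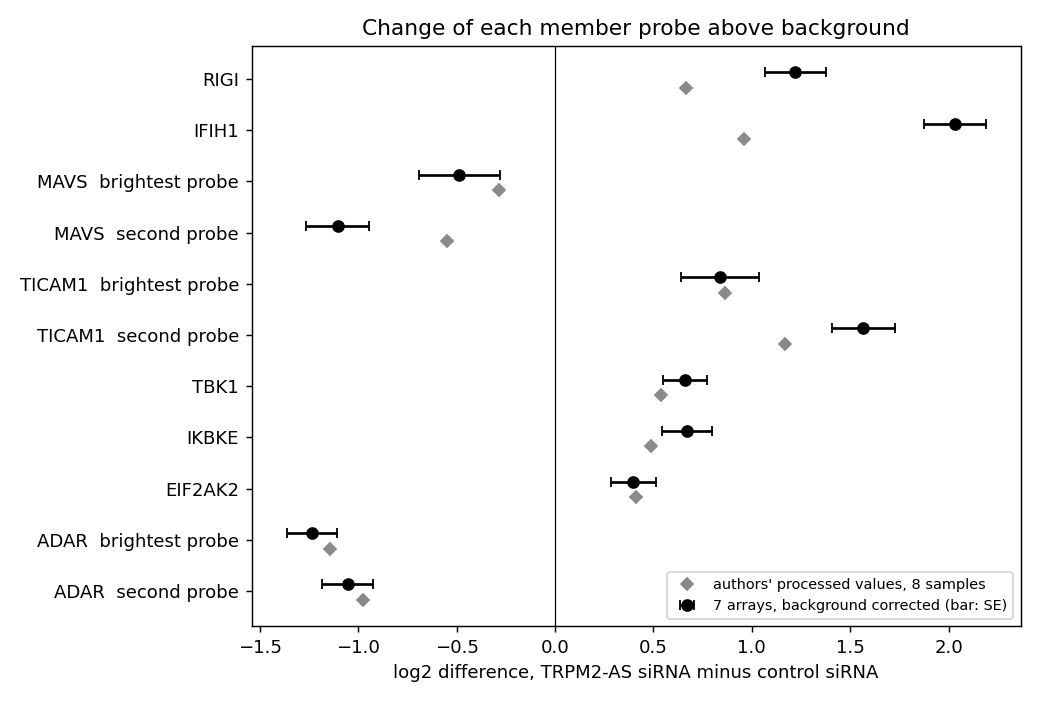
Log2 difference between TRPM2-AS siRNA and control siRNA for each of the 11 member probes that passed the detection filter (horizontal axis). Black points with SE bars come from the 7 background-corrected arrays and grey diamonds from the authors' processed values of 8 samples. Every diamond lies on the same side of 0 as its point. The value drawn for IFIH1 is fitted against controls below background. The second MAVS probe was detected on 1 of 3 TRPM2-AS siRNA arrays.

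Both kinases that phosphorylate IRF3 rose. TBK1 (chr12:64452120-64502114) is expressed in most tissues. It stood at 9.46, 9.43, 9.42 and 9.62 on control arrays 1 to 4 and at 10.11, 10.24 and 10.09 on TRPM2-AS siRNA arrays 1, 2 and 4. TBK1 rose 1.58-fold (log2 fold change 0.66 ± 0.11 SE, limma adjusted p = 0.000406), with the groups apart.

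IKBKE (chr1:206470476-206496889), the inducible relative of TBK1, stood at 7.50, 7.40, 7.69 and 7.79 on control arrays and at 8.24, 8.29 and 8.27 on TRPM2-AS siRNA arrays. It rose 1.59-fold (log2 fold change 0.67 ± 0.12 SE, limma adjusted p = 0.000807). The 3 TRPM2-AS siRNA arrays lay close together, with an SD of 0.03, above all control arrays.

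EIF2AK2 (chr2:37099210-37156980), which encodes the duplex-binding kinase PKR, had the smallest change among the members that passed. It stood at 10.76, 10.77, 10.64 and 10.73 on control arrays 1 to 4 and at 11.20, 11.18 and 10.99 on TRPM2-AS siRNA arrays 1, 2 and 4. EIF2AK2 rose 1.32-fold (log2 fold change 0.40 ± 0.11 SE, limma adjusted p = 0.00977). It did not pass a test against a fold of 1.2 (limma treat adjusted p = 0.247).

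ADAR (chr1:154582057-154627997), the editor of duplexes and the member that fell, was read by 3 probes that the platform assigns to different transcripts; whether a probe reads only its own transcript is not given in the sources used here. The brightest probe stood at 11.11, 11.19, 11.26 and 11.24 on control arrays and at 9.73, 10.15 and 10.01 on TRPM2-AS siRNA arrays. ADAR fell by 1.24 on the log2 scale on this probe (± 0.12 SE, 2.36-fold, limma adjusted p = 9.52e-06).

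The second ADAR probe moved in the same way, from 10.77, 10.61, 10.84 and 10.52 on control arrays to 9.81, 9.49 and 9.60 on TRPM2-AS siRNA arrays. It fell by 1.05 on the log2 scale (± 0.13 SE, limma adjusted p = 5.55e-05 over probes). The third ADAR probe was not above background on any array, between 4.57 and 5.10. On the detected probes all 3 TRPM2-AS siRNA arrays were below all control arrays.

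In all, 7 of the 8 tested members had groups that did not overlap, against 57.8% of all tested genes. IFIH1 is among the 7, and as it entered the test through the TRPM2-AS siRNA arrays alone, an overlap was unlikely for it. The authors' processed values of 4 against 4 samples, in which differences were smaller for the dim probes of IFIH1, RIGI and MAVS, gave the same directions. There 6 members were higher and 2 lower, MAVS being the second (log2 fold change -0.28, limma adjusted p = 0.0262), while 61.9% of all genes passed. The log2 fold changes in those values were 0.96 for IFIH1, 0.67 for RIGI, 0.86 for TICAM1, 0.54 for TBK1, 0.49 for IKBKE, 0.41 for EIF2AK2 and -1.14 for ADAR. TRPM2-AS siRNA replicate 3, absent from the raw comparison, was at 8.14 for RIGI and 8.03 for IFIH1, above the highest control values of 7.68 and 7.27. For ADAR it was at 10.16, below the lowest control value of 11.20. The groups overlapped there for MAVS but not for the other tested members, and 54.8% of all tested genes had groups apart.

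**Figure D3:**
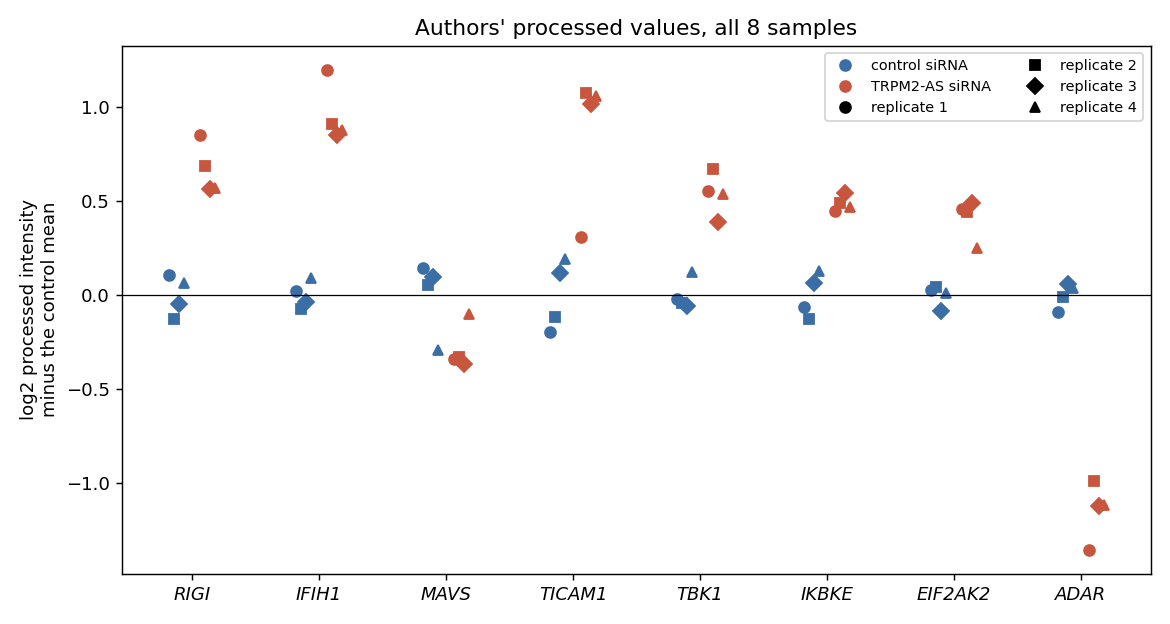
Authors' processed log2 intensity of the 8 tested members in all 8 samples, minus the mean of the 4 control samples (vertical axis); colour gives the siRNA and the symbol the replicate. The 4 TRPM2-AS siRNA samples lie above all control samples for 6 genes and below them for ADAR, and MAVS overlaps.

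IFIH1 was the member with the largest fitted change on the background-corrected scale. Without background correction the change of ADAR was larger, at log2 -1.16 against 0.97 for IFIH1. Over the 7 background-corrected arrays the profile most like that of IFIH1 belonged to OLR1, a scavenger receptor gene. The root mean square difference between their log2 values, each with its control mean subtracted, was 0.10. UTP25, at 0.11, and PID1, at 0.12, came next. OLR1, like IFIH1, was detected on all TRPM2-AS siRNA arrays and on no control array; as the profiles were chosen for this likeness, their changes are not given as results.

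The rest of the pathway was read from lists of related genes, to be set against 28.5% of all tested genes higher, 28.8% lower and a median of 0.00. Among 18 proteins that act on or beside the RIG-I-like helicases, 16 were tested, 8 rose and 3 fell (median log2 fold change 0.32). DDX3X, an RNA helicase that also binds MAVS and the kinases, rose 3.41-fold (log2 fold change 1.77 ± 0.14 SE, limma adjusted p = 1.86e-06), RIOK3, which encodes an atypical kinase that phosphorylates MDA5, 3.33-fold (adjusted p = 4.11e-07, limma) and LGALS3BP 5.72-fold (adjusted p = 4.52e-07, limma). PPP1CA, a catalytic subunit of the phosphatase that removes inhibitory phosphates from RIG-I and MDA5, fell by 1.44 on the log2 scale (adjusted p = 3.88e-06, limma). The ubiquitin ligase genes for RIG-I were named after their values were seen: RNF135 fell by 1.62 on the log2 scale, and TRIM25 had a log2 fold change of -0.21 and did not pass. The authors' processed values gave smaller log2 fold changes, 1.87 against 2.52 for LGALS3BP and -1.06 against -1.62 for RNF135.

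Below the adaptors the list moved both ways. Of 19 genes for proteins that bind MAVS or TICAM1 or carry their signal, 17 were tested, 7 rose and 4 fell (median 0.32). TANK, a scaffold of TBK1, rose 1.89-fold (limma adjusted p = 3.62e-05) and the ubiquitin ligase TRAF3 1.55-fold (limma adjusted p = 0.00102). AZI2, another TBK1 adaptor, detected on 2 of 3 TRPM2-AS siRNA arrays, fell by 1.37 (limma adjusted p = 4.66e-05) and the NF-kB kinase IKBKB fell by 0.70 on the log2 scale (limma adjusted p = 0.00085). Log2 fold changes were smaller in the authors' processed values, at 0.69 for TANK, 0.51 for TRAF3, -0.75 for AZI2 and -0.47 for IKBKB. The transcription factors that TBK1 activates were named after their values were seen: IRF3 had a log2 fold change of -0.07 and did not pass, and IRF7 rose by 0.81 (limma adjusted p = 0.00297).

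Partners of PKR and further duplex-binding proteins also went both ways, with 3 of 12 tested genes higher and 5 lower (median -0.17). EIF2S1, which encodes the translation factor subunit that PKR phosphorylates, fell by 1.67 on the log2 scale (limma adjusted p = 4.12e-06). DNAJC3, an inhibitor of PKR, rose 3.70-fold as fitted, with 2 of 4 controls above background (limma adjusted p = 4.47e-06). In the authors' processed values the log2 fold changes were smaller, -1.02 for EIF2S1 and 1.01 for DNAJC3. ADARB1, the paralogue of ADAR, fell by 1.11 on the log2 scale (limma adjusted p = 5.32e-06) and STAU1, which binds duplexes in messenger RNA, by 0.92 (limma adjusted p = 2.71e-05). The related kinase gene EIF2AK3 was at least 1.22-fold higher on the background-corrected scale, from background in all controls. Its place in the test came through the TRPM2-AS siRNA arrays alone, and the limma adjusted p of 0.000193 belongs to its fitted change.

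Among 15 oligoadenylate synthetases and other nucleic acid sensors, 9 were tested, 5 rose and 3 fell (median 0.77). OASL and OAS2 entered the test through the TRPM2-AS siRNA arrays alone. With detection required on at least 4 arrays, 3 genes of this list rose and 3 fell. On the background-corrected scale the brightest probe of OASL was at least 9.46-fold and that of OAS2 at least 1.86-fold higher, neither above background in controls. Their fitted changes had limma adjusted p = 5.49e-09 and 2.14e-05. Without background correction the changes on the brightest probes were smaller than these bounds, at log2 2.48 for OASL and 0.86 for OAS2. The authors' processed values gave 2.52 and 0.93. On the background-corrected scale, second probes had fitted log2 differences of 2.00 for OASL and 1.35 for OAS2 (limma adjusted p = 2.23e-05 and 8.05e-05 over probes). These probes too were not above background on any control array. They entered the fit through the TRPM2-AS siRNA arrays alone, and no bound is given for them. OAS1, named after its values were seen, was detected on 0 control and 2 TRPM2-AS siRNA arrays and was not tested. OAS3 rose 2.13-fold (limma adjusted p = 7.12e-05) and STING1, the adaptor of cytosolic DNA sensing, 2.28-fold (limma adjusted p = 4.90e-06). Their log2 fold changes were 1.09 and 1.19, against 0.66 and 0.90 in the authors' processed values. The endosomal receptors TLR7, TLR8 and TLR9 were not above background on any array. ZBP1, a sensor of left-handed duplexes named after its value was seen, fell by 0.94 (limma adjusted p = 0.000157), and by 0.54 in the authors' processed values.

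Interferon genes themselves were not seen. IFNB1, IFNL1, IFNL2, IFNL3, CXCL10, CCL5 and RSAD2 were not above background on any of the 7 arrays, so no change in them was detectable. Of the 7 genes tested in the list that also holds genes induced by interferon or by IRF3, 6 rose (median 2.08) and IRF1 did not pass (log2 fold change 0.29, limma adjusted p = 0.53). IFIT1 rose 11.4-fold, IFIT2 12.1-fold, IFIT3 7.39-fold and HERC5 4.22-fold (limma adjusted p = 2.52e-08, 1.38e-07, 3.74e-08 and 2.01e-07); a second IFIT1 probe had a log2 difference of 0.92.

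**Figure D4:**
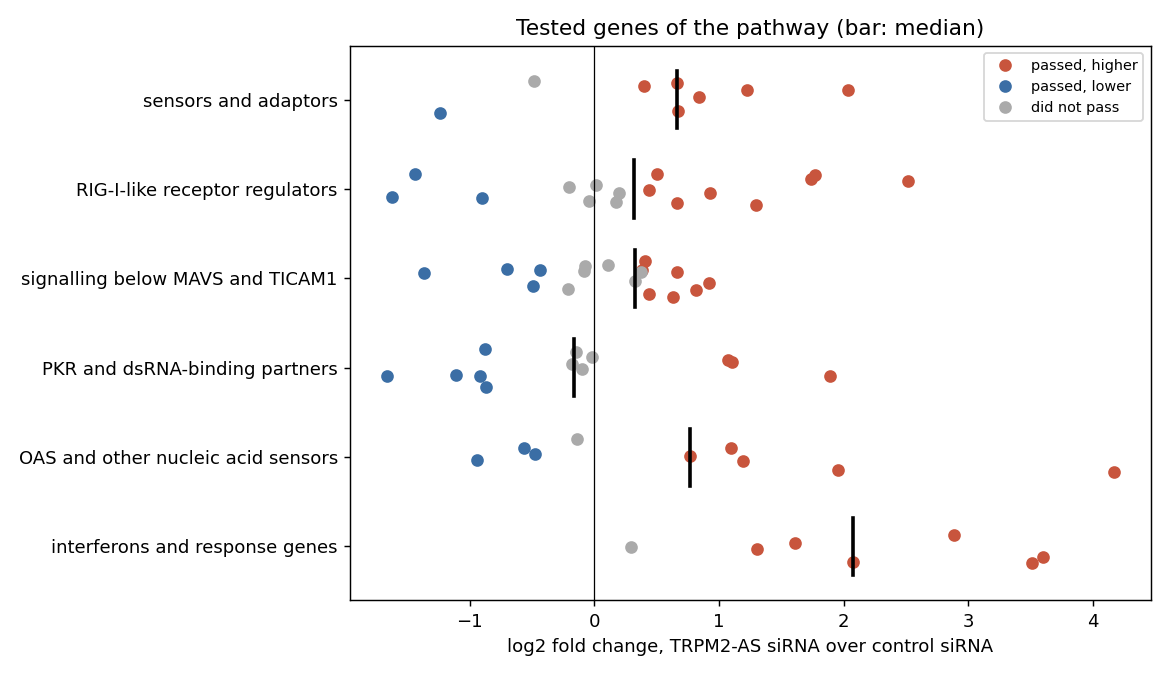
Log2 fold change of each tested gene in 6 lists (horizontal axis), coloured by whether it passed (adjusted p under 0.05) and in which direction, with the list median as a bar. Sensors and adaptors have a median of 0.67, the partners of PKR one of -0.17 and the interferon response genes one of 2.08; genes below background in controls, among them IFIH1, OAS2 and OASL, are drawn at their fitted values.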

How the data were processed

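Total RNA of 8 PC3 samples was labelled with biotin and read on Illumina bead arrays. The authors deposited non-normalized intensity per probe with a detection p-value beside each signal, per the file headers, and a second table of processed intensity whose columns share 1 distribution; BeadStudio and limma are named in the submitters' processing notes, without version or settings. Raw columns were traced to samples by identical ranks over 48798 shared probes, and 1 column was not used.

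Signals of 7 arrays were corrected with normexp from the detection p-values (offset 16), brought to common quantiles and taken to log2 with limma 3.58.1 in R 4.3.3. A probe was kept if 3 or more arrays, the size of the smaller group, gave it a detection p under 0.01 (14400 probes), and the brightest kept probe stood for its gene. Of all probes, 28094 had 1 gene name, 13 several and 20691 none. Groups were compared with lmFit and eBayes, two-sided, with Benjamini-Hochberg adjustment over 9629 genes; second probes came from a fit over all kept probes, and the authors' processed values were tested on log2 for the same probes. Simulated data, with independent noise drawn from the fit's own variances, served to check the code of this fit only. For "at least" folds, an array without detection counted at its lowest signal among detected probes, or at the probe's own signal where that was higher. The number of arrays limits the precision: log2 fold changes had a median SE of 0.14. A common shift of all genes would not be seen after quantile normalization.

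All members are named with every probe, and from each list up to 4 tested genes with the smallest p, any gene detected on every array of 1 group and on none of the other, and the 3 profiles most like the most changed member; other genes are said to be chosen after their values were seen. Members and lists were chosen with earlier results of these data known. Alternatives covered background, normalization, filter, probe choice, variance model, array weights, the processed values, these with a block for replicate number, a minimum fold and each array left out.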

Additional observations from a re-analysis of the deposited data

Results flagged for a closer look

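In 33 groups of 4 values (11 member probes, control arrays in both tables and TRPM2-AS siRNA samples in the processed values), 3 had 1 sample far from the other 3 by Dixon's 95% criterion; chance gives about 1 in 20 groups. All 3 were TRPM2-AS siRNA samples in the authors' processed log2 values. The control groups hold the same 4 arrays in both tables, and some probes share a gene. The 33 groups are therefore not independent, and the share of 1 in 20 is only a rough guide. IFIH1 was at 8.37 in replicate 1 against 8.03 to 8.08 in the others. The brightest TICAM1 probe was at 11.51 in replicate 1 against 12.22 to 12.28. The brightest MAVS probe was at 7.75 in replicate 4 against 7.48 to 7.52.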

How the results depend on the processing

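The 172 member values under 22 alternatives kept their direction, and 166 kept their side of the threshold; EIF2AK2 lost its call against a fold of 1.2, and MAVS gained one in 5. The count of members called lower was then 2 in place of 1: with the mean of detected probes, in the authors' processed values (2) and in those with the replicate block (2, with 6 members higher), without control replicate 4 and without TRPM2-AS siRNA replicate 4, so that leaving out single arrays gave 1 to 2. Members called higher numbered 5 to 6 when single arrays were left out. They were 5 without any 1 of the TRPM2-AS siRNA arrays or with detection on at least 4 arrays, because IFIH1, seen on 3 arrays, then leaves the test; its log2 fold change elsewhere was 0.96 to 2.11. Against a fold of 1.2, 3598 genes passed in place of 5514; without single arrays 4837 to 5240 did. The replicate block in the processed values gave 6273 genes against 5964 without it and changed no member's call. Deviations of same-numbered samples correlated at 0.38, -0.07, 0.09 and 0.22 for replicates 1 to 4, with the best match under the same number for replicates 1 and 4 only, so the numbers were not taken to pair the samples. Of 220 counts in the pathway lists 6 moved by more than 1.5 times: the nucleic acid sensors called higher fell from 5 to 3 where OAS2 and OASL left the test in the same way (detection on 4 arrays, or any TRPM2-AS siRNA array left out), and against a fold of 1.2 the list below the adaptors had 3 higher and 2 lower. Genes near background, such as DHX58, TLR3 and the interferons, could not be measured here.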
